A study of Homo sapiens with 24 samples.

Results

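The genes described here are FGA, FGB and FGG, which encode the chains of fibrinogen, RBP4 and STRA6, which carry and receive retinol, and SERPINA1, which encodes alpha-1 antitrypsin. They are 6 of the 18132 genes that a probe set of the array names alone. They were chosen by name with earlier results of these arrays known, and 20 probe sets name one of them and no other gene. Each gene was read from the probe set with the highest mean over the 24 arrays, which gave 6.676 for FGA, 10.93 for FGB, 3.954 for FGG, 7.908 for RBP4, 6.38 for SERPINA1 and 7.209 for STRA6 as log2 signals. The next probe set had a mean of 6.314 for FGA, 10.7 for FGB, 3.464 for FGG, 6.366 for SERPINA1 and 7.17 for STRA6, and RBP4 had 1 probe set. These means only chose the probe sets, and probe sets differ in affinity, so no gene's signal is set against another gene's. STRA6 encodes a membrane protein, so the word secretory holds for the other 5 genes.

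Fibrinogen is a plasma protein built from alpha, beta and gamma chains, which thrombin turns into the fibrin of a clot. The liver makes most of it, from 3 neighbouring genes, and in the acute-phase response interleukin 6 raises their transcription there through STAT3 together with C/EBP factors. RBP4 carries retinol (vitamin A) from the liver through blood, bound to transthyretin, and the proximal tubule of the kidney takes filtered RBP4 back up. STRA6 is the cell-surface receptor that moves retinol from RBP4 into cells. SERPINA1 inhibits neutrophil elastase and is, like fibrinogen, an acute-phase protein of the liver.

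Expression was measured in 2 established human renal cell carcinoma lines, Caki-1, taken from a metastasis, and 769-P, taken from a primary tumour, on Affymetrix PrimeView arrays. In each line 1 group received dasatinib, a SRC and ABL family kinase inhibitor, at 1 µM for 6 h, a further group for 12 h and another for 24 h, and the remaining group received DMSO, the solvent. That made 8 groups of 3 arrays. The labels name the arrays of a group biological replicates without saying whether they came from separate cultures, so the p-values measure the spread between these arrays, which may be technical. DMSO samples carry no time in the labels, so within a line every time was set against the same 3 DMSO arrays, and time in drug and time in culture cannot be told apart. Values are the deposited log2 signals, and a difference of 1 means a doubling of signal. Array medians lay between 6.008 and 6.084, and correlations within a group between 0.9929 and 0.9975. A gene entered the tests of a line if its mean over that line's 12 arrays exceeded the 40th percentile of the probe-set means, which was 5.379 in Caki-1 and 5.362 in 769-P. FGA, FGB, RBP4 and STRA6 passed in Caki-1, and FGB, SERPINA1 and STRA6 passed in 769-P. Comparisons across the lines took genes that passed in at least 1 line, so FGA and RBP4 entered them only through Caki-1 and SERPINA1 only through 769-P. Members under the filter are given without a test, except where a fit with no filter is named. "Rose" and "fell" are used of changes with an adjusted p under 0.05 in limma, adjusted by Benjamini-Hochberg over all genes tested, and changes are given ± SE.

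In the GRCh38.p14 annotation of RefSeq the fibrinogen genes lie side by side on chromosome 4: FGB from 154562980 to 154572807, FGA from 154583126 to 154590742, and FGG from 154604136 to 154612656. RBP4 lies on chromosome 10 from 93591694 to 93601744, SERPINA1 on chromosome 14 from 94376747 to 94390635, and STRA6 on chromosome 15 from 74179466 to 74212259. RefSeq promoter windows of 300 bases, 250 before and 50 from each annotated start, were found for all 6 genes, 14 windows of 35116 in all. The 250 bases before a start are printed for the 3 genes that rose in Caki-1 (FGA, FGB and RBP4), for FGG, the neighbour of FGA, whose signal stayed under the filter, and for SERPINA1, which rose in 769-P. They run 5′ to 3′ on the gene's strand, and capitals mark the motifs searched, on both strands. From FGA (chr4:154590743-154590992, minus strand), FGB (chr4:154562730-154562979, plus), FGG (chr4:154612657-154612906, minus), RBP4 (chr10:93601236-93601485, minus; 1 of its 3 windows) and SERPINA1 (chr14:94388603-94388852, minus; 1 of its 2) they are:
FGA: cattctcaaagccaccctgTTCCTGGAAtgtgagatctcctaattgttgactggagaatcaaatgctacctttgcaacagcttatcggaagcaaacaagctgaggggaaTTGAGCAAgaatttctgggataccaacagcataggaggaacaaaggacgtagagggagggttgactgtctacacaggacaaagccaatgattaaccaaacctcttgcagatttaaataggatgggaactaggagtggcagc
FGB: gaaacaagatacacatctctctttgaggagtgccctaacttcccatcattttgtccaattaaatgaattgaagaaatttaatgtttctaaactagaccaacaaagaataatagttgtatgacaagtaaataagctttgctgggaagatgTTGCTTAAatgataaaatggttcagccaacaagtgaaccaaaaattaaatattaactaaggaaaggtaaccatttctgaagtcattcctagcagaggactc
FGG: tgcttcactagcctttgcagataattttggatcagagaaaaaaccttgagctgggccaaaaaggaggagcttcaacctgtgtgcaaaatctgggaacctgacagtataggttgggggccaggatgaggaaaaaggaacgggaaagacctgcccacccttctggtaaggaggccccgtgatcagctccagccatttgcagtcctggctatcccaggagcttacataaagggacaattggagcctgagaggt
RBP4: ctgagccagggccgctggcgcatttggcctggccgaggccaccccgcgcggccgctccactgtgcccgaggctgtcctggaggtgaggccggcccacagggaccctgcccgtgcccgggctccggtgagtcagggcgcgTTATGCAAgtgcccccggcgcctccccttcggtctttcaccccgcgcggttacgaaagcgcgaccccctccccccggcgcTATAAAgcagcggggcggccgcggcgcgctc
SERPINA1: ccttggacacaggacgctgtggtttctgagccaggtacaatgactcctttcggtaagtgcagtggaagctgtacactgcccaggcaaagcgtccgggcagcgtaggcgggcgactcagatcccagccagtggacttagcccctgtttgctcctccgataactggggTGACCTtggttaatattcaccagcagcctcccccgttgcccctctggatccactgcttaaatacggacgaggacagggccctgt
The letters TTGCNNAA, a C/EBP-type motif, were found in windows of FGA (position -141, counted from the start), FGB (-101 in the window printed) and RBP4 (-111, in 1 of its 3 windows). They were in none of the other 3 genes, and in 10.5% of all windows. TTCNNNGAA, a STAT-type motif, was in windows of FGA, RBP4 and STRA6 (7.66% of all), TATAAA in windows of RBP4 and STRA6 (11.5%), and AGGTCA, the motif of many nuclear receptors, in windows of SERPINA1 and STRA6 (13.8%). These shares are of single windows, and a gene with several windows has more places for a match. Of the 14 windows of the 6 genes, 4 held TTGCNNAA, 4 TTCNNNGAA, 4 TATAAA and 3 AGGTCA. None of 7 motifs searched was found in FGG's window. GTTAAT, an HNF1 motif, was planned but is not among the motifs searched, so it is not in capitals. The printed lower-case bases of FGA, FGB and SERPINA1 hold it or its reverse complement, and its share of all windows was not counted. The direct repeat of retinoic acid receptors with a spacer of 5 bases was in no window of the 6 genes (0.0057% of all windows), nor was TTCNNGAA (7.74%) or CAAAGTCCA, an HNF4 motif (0.384%). A match of letters describes the sequence and is not a binding site shown to be used.

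FGA, the alpha chain, had log2 signals in Caki-1 of 5.75, 5.70 and 5.92 under DMSO, 8.97, 8.36 and 8.17 after 6 h of dasatinib, 9.68, 9.44 and 9.45 after 12 h, and 9.48, 9.68 and 9.62 after 24 h. Every dasatinib array was above every DMSO array, and the 12 h and 24 h arrays overlapped. FGA rose by 2.71 ± 0.16 at 6 h (adjusted p = 3.09e-08), 3.73 ± 0.16 at 12 h (adjusted p = 5.29e-10) and 3.80 ± 0.16 at 24 h (adjusted p = 1.02e-10), a 13.9-fold higher signal at 24 h. Arrays read RNA from a whole culture, so more RNA per cell and more cells holding it cannot be told apart. In 769-P the same probe set gave 5.02, 5.01 and 4.69 under DMSO, 5.09, 4.83 and 5.11 after 6 h of dasatinib, 5.31, 5.32 and 4.81 after 12 h, and 4.98, 4.69 and 5.14 after 24 h. All 12 of these values lay under the filter level, the groups overlapped, and the mean at 24 h was 4.93 ± 0.23 against 4.91 ± 0.18 under DMSO (SD, n = 3 each).

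FGB, the beta chain, gave a bright signal in both lines. In Caki-1 it was 9.12, 8.64 and 8.64 under DMSO, 11.24, 10.18 and 10.30 after 6 h of dasatinib, 11.90, 11.61 and 11.58 after 12 h, and 12.78, 12.45 and 12.42 after 24 h. No group overlapped the one before it in time, and FGB rose by 1.77 ± 0.22 at 6 h (adjusted p = 2.84e-05), 2.90 ± 0.22 at 12 h (adjusted p = 6.94e-08) and 3.75 ± 0.22 at 24 h (adjusted p = 1.62e-09), 13.4-fold at 24 h. In 769-P it was 10.81, 10.75 and 10.45 under DMSO, 10.80, 10.89 and 10.66 after 6 h of dasatinib, 11.11, 11.34 and 10.47 after 12 h, and 11.40, 11.80 and 11.09 after 24 h. There the 6 h and 12 h arrays overlapped those of DMSO, with changes of 0.12 ± 0.19 (adjusted p = 0.712) and 0.30 ± 0.19 (adjusted p = 0.214). At 24 h all 3 arrays were above DMSO, and FGB rose by 0.76 ± 0.19 (adjusted p = 0.00267). The 12 h value of 769-P depends on single arrays: without replicate 3, the lowest of its group, the change was 0.56 (adjusted p = 0.0113), and without replicate 2, the highest, it was 0.12 (adjusted p = 0.67).

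FGG, the gamma chain, stayed under the filter in both lines. In Caki-1 its signals were 4.05, 3.70 and 3.90 under DMSO, 3.84, 3.64 and 3.89 after 6 h of dasatinib, 4.14, 3.92 and 4.40 after 12 h, and 4.60, 4.63 and 4.41 after 24 h. The 24 h arrays were above all DMSO arrays, with means of 4.55 ± 0.12 at 24 h and 3.89 ± 0.17 under DMSO (SD, n = 3 each), a difference of 0.66 that was under the filter and so not among the tests above. In the fit with no filter it had an adjusted p of 0.000336, and the 24 h against 6 h difference of 0.76 one of 0.000133. Its other probe set gave a difference of 0.30 at 24 h. The 6 h and 12 h arrays overlapped those of DMSO. In 769-P the values were 3.40, 3.69 and 4.01 under DMSO, 3.68, 3.69 and 4.06 after 6 h of dasatinib, 3.74, 4.01 and 3.76 after 12 h, and 3.70, 4.26 and 3.76 after 24 h, with overlap at each time and, with no filter, an adjusted p of 0.392 at 24 h. The level of FGG in Caki-1 stood at the 16.2 percentile of all probe-set means, and its level in 769-P at the 10 percentile.

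**Figure D1:**
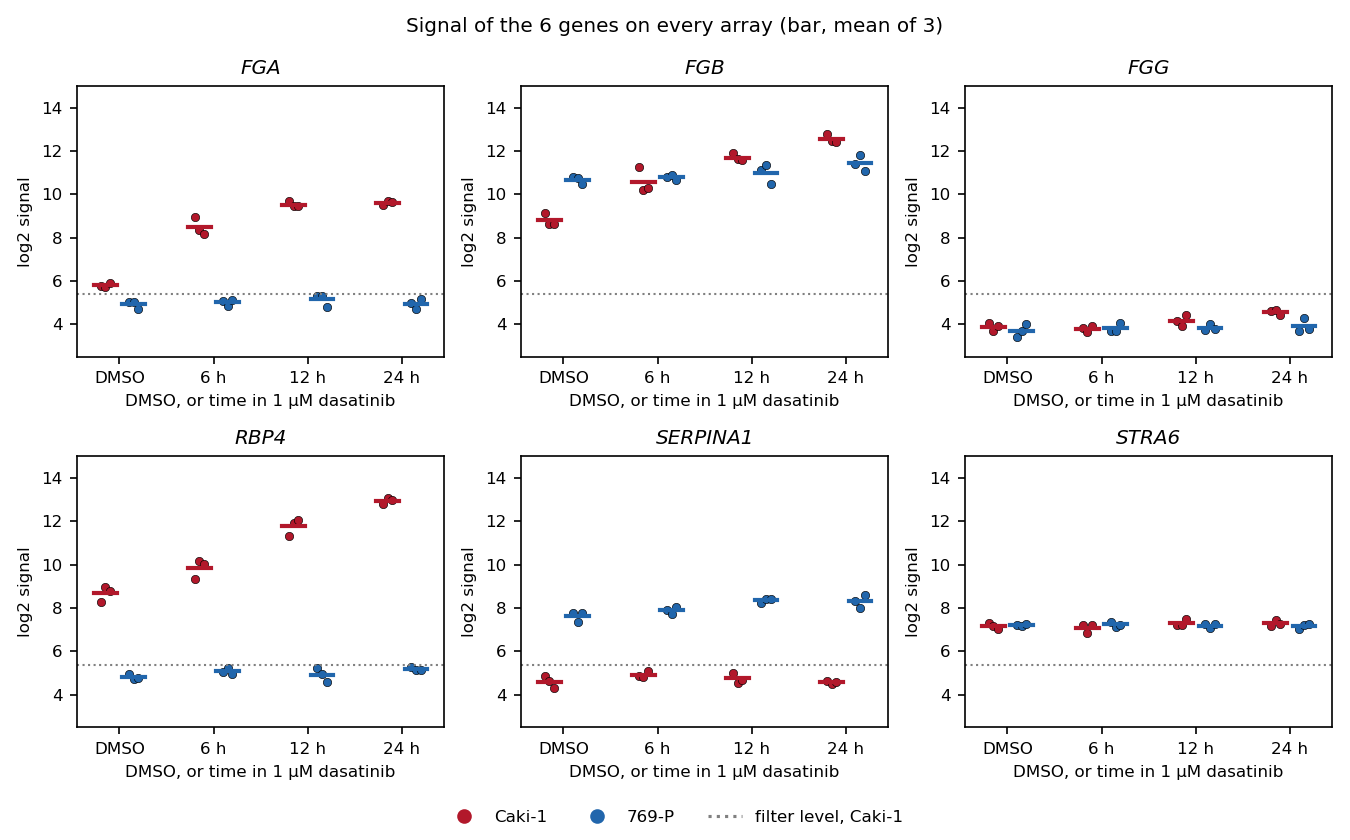
Log2 signal of the 6 genes on each of the 24 arrays (vertical axis), under DMSO and after 6, 12 and 24 h in 1 µM dasatinib (horizontal axis). Points are arrays, bars are means of 3, red is Caki-1, blue is 769-P, and the dotted line is the Caki-1 filter level of 5.379. FGA, FGB and RBP4 climb in Caki-1, while FGG lies under the dotted line on every array.

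RBP4, the plasma carrier of retinol, rose at each time in Caki-1. In Caki-1 its signals were 8.30, 8.95 and 8.80 under DMSO, 9.35, 10.18 and 10.05 after 6 h of dasatinib, 11.35, 11.93 and 12.07 after 12 h, and 12.79, 13.07 and 13 after 24 h. Each group lay wholly above the one before it, and the gene rose by 1.17 ± 0.22 at 6 h (adjusted p = 0.000906), 3.10 ± 0.22 at 12 h (adjusted p = 3.95e-08) and 4.27 ± 0.22 at 24 h (adjusted p = 4.82e-10), 19.3-fold at 24 h. In 769-P the values were 4.94, 4.74 and 4.75 under DMSO, 5.05, 5.23 and 4.95 after 6 h of dasatinib, 5.25, 4.93 and 4.58 after 12 h, and 5.28, 5.12 and 5.13 after 24 h. They were under the filter level, and the means were 5.18 ± 0.09 at 24 h and 4.81 ± 0.11 under DMSO (SD, n = 3 each), a difference of 0.37 with an adjusted p of 0.0559 in the fit with no filter. The 6 h and the 24 h arrays of 769-P did not overlap those of DMSO, and the 12 h arrays did. STRA6, the receptor for RBP4, was measured in both lines at similar signals. Its Caki-1 arrays read 7.29, 7.19 and 7.02 under DMSO, 7.23, 6.83 and 7.22 after 6 h of dasatinib, 7.21, 7.21 and 7.51 after 12 h, and 7.17, 7.45 and 7.24 after 24 h. Its 769-P arrays read 7.21, 7.18 and 7.27 under DMSO, 7.37, 7.14 and 7.22 after 6 h of dasatinib, 7.25, 7.07 and 7.25 after 12 h, and 7.04, 7.20 and 7.25 after 24 h. Dasatinib and DMSO arrays overlapped at each time in both lines. At 24 h the change was 0.12 ± 0.13 in Caki-1 (adjusted p = 0.426) and -0.06 ± 0.10 in 769-P (adjusted p = 0.657), and no test of STRA6 at 6 h or 12 h passed with this probe set.

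SERPINA1, the elastase inhibitor, gave signals above the filter level in 769-P and not in Caki-1. In 769-P they were 7.77, 7.37 and 7.76 under DMSO, 7.90, 7.73 and 8.04 after 6 h of dasatinib, 8.24, 8.44 and 8.42 after 12 h, and 8.31, 8.02 and 8.59 after 24 h. The 6 h arrays overlapped those of DMSO (change 0.25 ± 0.14, adjusted p = 0.203), and the 12 h and 24 h arrays were all above them. SERPINA1 rose by 0.73 ± 0.14 at 12 h (adjusted p = 0.000467) and by 0.68 ± 0.14 at 24 h (adjusted p = 0.000692), 1.6-fold. In Caki-1 they were 4.84, 4.64 and 4.32 under DMSO, 4.86, 4.81 and 5.11 after 6 h of dasatinib, 5.02, 4.53 and 4.69 after 12 h, and 4.64, 4.51 and 4.57 after 24 h. All of these lay under the filter level and dasatinib arrays overlapped DMSO arrays at each time.

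Of the 4 genes tested in Caki-1, 3 rose at 6 h, 12 h and 24 h, and none fell. Over all genes tested in Caki-1, 12.3%, 24.1% and 32.9% rose at these times and 14.0%, 24.4% and 29.9% fell. Ranked among all 12420 genes by the size of the rise at 24 h, RBP4 was at place 4, FGA at 7 and FGB at 8. At 6 h FGA was at place 4, FGB at 35 and RBP4 at 90. Of the 3 genes tested in 769-P, none rose at 6 h, 1 rose at 12 h and 2 rose at 24 h, against 16.4%, 24.9% and 31.1% of all genes. None fell, where 14.5%, 22.6% and 24.6% of all genes did. Their places by size at 24 h were 1353 for FGB and 1646 for SERPINA1, where 3841 of 12350 genes rose. The members were listed with earlier results of these arrays known, so the counts and places describe them and are no independent support.

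Shares of the 24 h change reached earlier describe the course of the genes that rose in Caki-1, each by its brightest probe set. By 6 h FGA had made 71.2% of its 24 h change on the log2 scale, FGB 47.2% and RBP4 27.5%, and by 12 h these shares were 98.2%, 77.3% and 72.6%. From 12 h to 24 h the mean of FGA moved by 0.07, that of FGB by 0.85 and that of RBP4 by 1.17. The comparison of 24 h with 6 h, which uses no DMSO array, gave a rise of 1.09 ± 0.16 for FGA (adjusted p = 3.27e-05), 1.98 ± 0.22 for FGB (adjusted p = 2.29e-06) and 3.09 ± 0.22 for RBP4 (adjusted p = 2.4e-08), while STRA6 gave 0.19 ± 0.13 (adjusted p = 0.222). Over all genes, 28.1% rose and 25.6% fell in it. The difference in course between the 3 genes was not tested, and for FGA the course depended on the probe set. Of the others, 11757349_a_at gave 3.68, 5.02 and 5.27 at 6, 12 and 24 h, 11731399_s_at gave 0.76, 1.81 and 2.46, 11749963_a_at gave 0.37, 0.61 and 1.03, and 11731398_a_at gave 0.16, 0.55 and 0.77. In 769-P at 24 h against 6 h FGB rose by 0.65 ± 0.19 (adjusted p = 0.011) and SERPINA1 by 0.42 ± 0.14 (adjusted p = 0.0241), against 25.8% of all genes that rose and 18.5% that fell. Equally numbered arrays deviated together in this comparison, and with the replicate number as a block the adjusted p was 5.42e-05 for FGB and 0.00427 for SERPINA1. In the fit without the block both calls could be lost with 1 array: FGB gave 0.47 without 24 h replicate 2 (adjusted p = 0.0658). SERPINA1 gave 0.28 without 24 h replicate 3 (adjusted p = 0.135), 0.34 without 6 h replicate 2 (adjusted p = 0.104) and 0.43 without 6 h replicate 1 (adjusted p = 0.0541).

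**Figure D2:**
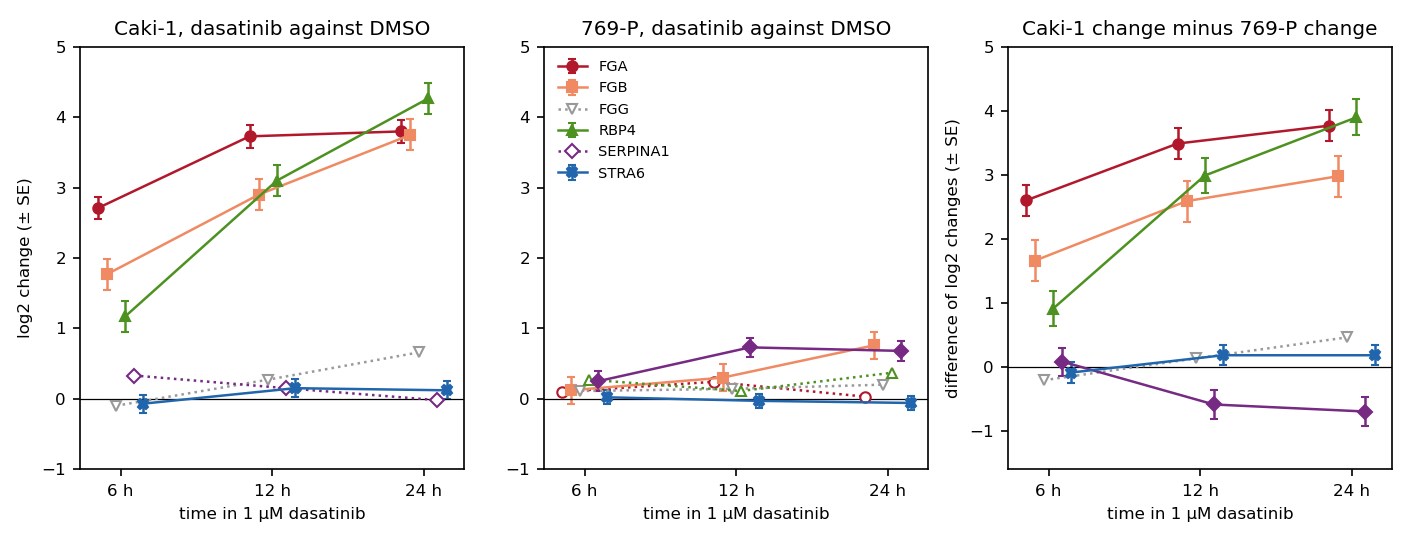
Log2 change ± SE of the 6 genes against DMSO at 6, 12 and 24 h in Caki-1 (left) and 769-P (middle), and the difference of the changes, Caki-1 minus 769-P (right). Filled symbols with bars were tested, open symbols with dotted lines lay under the filter. FGA is highest of the 3 rising genes at 6 h in Caki-1 (2.71) and RBP4 at 24 h (4.27).

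The difference of the responses was itself tested over all 24 arrays, as the change in Caki-1 minus the change in 769-P. The 769-P signals of FGA and RBP4 and the Caki-1 signals of SERPINA1 lay under the filter level, and the sizes given for these genes are relative to such low signals. These genes passed the filter only through the line where they are high, so their values here are a description and no independent support. For FGA the difference was 2.60 ± 0.24, 3.49 ± 0.24 and 3.77 ± 0.24 at 6, 12 and 24 h (adjusted p = 7.85e-08, 2.7e-10 and 3.2e-11). For FGB it was 1.66 ± 0.32, 2.59 ± 0.32 and 2.98 ± 0.32 (adjusted p = 0.00109, 1.9e-06 and 1.28e-07). For RBP4 it was 0.91 ± 0.28, 2.99 ± 0.28 and 3.90 ± 0.28 (adjusted p = 0.0471, 5.13e-08 and 3.17e-10), and its 6 h call is marginal: the value was 0.71 without Caki-1 DMSO replicate 1 (adjusted p = 0.151) and leaving out 10 of the 12 arrays in turn lost the call. The change of FGB, which passed the filter in both lines, was called higher in Caki-1 at each time. So were those of FGA and RBP4, which entered only through Caki-1. Of all 12862 genes 3.68%, 8.67% and 13.8% were called higher at the 3 times. No test of the 5 genes passed in the lower direction at 6 h or 12 h, where 4.42% and 10.3% of all genes did. SERPINA1 went the other way at 24 h, with -0.70 ± 0.22 (adjusted p = 0.0144, where 22.2% of genes were lower), a call lost without 769-P DMSO replicate 2 (-0.57, adjusted p = 0.0535) or 769-P 24 h replicate 3 (-0.56, adjusted p = 0.0525). At 12 h it gave -0.59 ± 0.22 (adjusted p = 0.0643), and it was called lower after quantile normalization (adjusted p = 0.0478), by the mean of its probe sets (0.00508), and without Caki-1 DMSO replicate 3 (0.025) or Caki-1 12 h replicate 1 (0.0213). STRA6 gave 0.18 ± 0.16 at 24 h (adjusted p = 0.416). FGG, under the filter in both lines, gave 0.46 at 24 h with an adjusted p of 0.138 in the fit with no filter.

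Without drug the levels of these genes in the lines were as follows. Under DMSO the Caki-1 signal minus the 769-P signal was -1.87 ± 0.22 for FGB (adjusted p = 1.01e-07) and -0.05 ± 0.12 for STRA6 (adjusted p = 0.717), the 2 genes that passed the filter in both lines. RBP4 averaged 8.68 ± 0.34 in Caki-1 and 4.81 ± 0.11 in 769-P, FGA 5.79 ± 0.12 in Caki-1 and 4.91 ± 0.18 in 769-P, and SERPINA1 4.60 ± 0.26 in Caki-1 and 7.63 ± 0.23 in 769-P (SD, n = 3 each). For these 3 the lower value lay under the filter level and the gene was taken in through the line where it is high, so the sizes are a description with no test. Over all genes, 28.8% were higher and 29.9% lower in Caki-1. FGB changed places with time. Under DMSO all 3 Caki-1 arrays (8.64 to 9.12) were below all 769-P arrays (10.45 to 10.81), and at 24 h of dasatinib the Caki-1 arrays (12.42 to 12.78) were above those of 769-P (11.09 to 11.80). With 2 lines, the differences belong to these lines and to no class of tumour.

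Other probe sets of the same genes differed in how large a change they read. In Caki-1 at 24 h, all 5 FGA probe sets had a higher mean than under DMSO, with differences of group means from 0.77 (11731398_a_at, with means of 5.13 at 24 h and 4.37 under DMSO) through 1.03 (11749963_a_at) and 2.46 (11731399_s_at) to 3.80 for the brightest and 5.27 for 11757349_a_at, with means of 10.48 at 24 h and 5.20 under DMSO. That probe set had a lower mean over all arrays than the brightest and read a larger change. In 769-P the 5 differences lay between -0.19 and 0.19. The bright FGB probe sets gave 3.68, 3.75 and 3.82 in Caki-1 and 0.76, 0.78 and 0.86 in 769-P, and the dim 11758728_at gave 1.15 in Caki-1 and 0.37 in 769-P. In 769-P 3 SERPINA1 probe sets gave 0.58, 0.68 and 0.70 at 24 h, and 11721457_a_at gave 0.17 (adjusted p = 0.36 in a fit with it in place of the brightest). For STRA6, 11733687_s_at in place of the brightest gave -0.46 at 6 h (adjusted p = 0.0275) and -0.37 at 12 h (adjusted p = 0.0454) in Caki-1, where the brightest gave -0.07 and 0.15. It also read higher in Caki-1 than in 769-P under DMSO, by 0.75 (adjusted p = 0.000119), so for STRA6 the call depends on the probe set. These replacements were chosen after the data were seen.

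**Figure D3:**
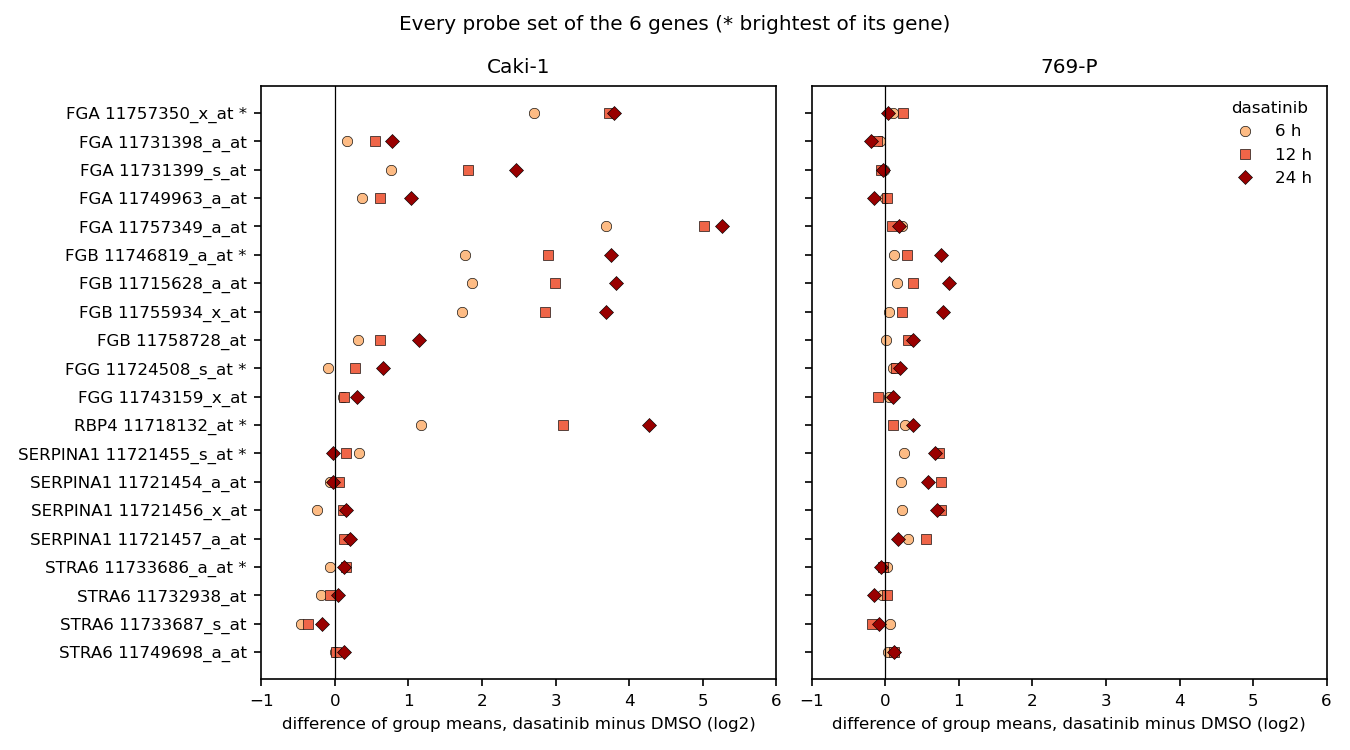
Difference of group means, dasatinib minus DMSO, in log2 units (horizontal axis) for each of the 20 probe sets of the 6 genes (rows, the brightest of a gene starred) at 6, 12 and 24 h in Caki-1 (left) and 769-P (right). The FGA probe sets spread from 0.77 to 5.27 at 24 h in Caki-1, while 3 of 4 FGB probe sets lie between 3.68 and 3.82.

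Across the 12 Caki-1 arrays the signals of the rising genes were correlated. Pearson's r was 0.952 between FGA and FGB, 0.914 between FGB and RBP4 and 0.86 between FGA and RBP4. The arrays share groups and the order of time, so these values describe the courses. Across the 12 arrays of 769-P the same pairs gave 0.131, 0.653 and 0.269. FGA and RBP4 lay under the filter level there, and each pair holds at least 1 of them, so these values rest on low signals. Over all 24 arrays the genes most like FGA were LMO1 (r = 0.981), a LIM-domain regulator of transcription, THEMIS2 (0.975) and MFSD12 (0.972). Within Caki-1 these gave 0.955, 0.953 and 0.948, and within 769-P 0.32, 0.413 and -0.165. Those most like RBP4 were REPS2 (0.994), CPE (0.99), a carboxypeptidase of secretory granules, and MRC2 (0.99), an endocytic collagen receptor, with 0.989, 0.965 and 0.986 within Caki-1 and -0.0994, 0.575 and -0.148 within 769-P. Those most like FGB were OPTN (0.92), an autophagy receptor, ARHGEF5 (0.906) and TFPI (0.895), the inhibitor of the tissue factor pathway, with 0.975, 0.975 and 0.928 within Caki-1 and 0.616, 0.698 and 0.501 within 769-P. SERPINA1 was closest to ZIC2, KBTBD11 and CXADR (0.99 each). Within Caki-1 the same genes gave 0.491, -0.013 and -0.0544, and within 769-P 0.729, 0.716 and 0.717. FGG was closest to SNHG29 (0.835), LTBP3 (0.832) and TFEB (0.821), and STRA6 to TRIM15 (0.755), C2CD2L (0.736) and FLT4 (0.734). Over 24 arrays r also takes in the difference in level between the lines. No p is given, since these genes were picked for their r.

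Genes beside the members on the chromosome went in both directions. PLRG1, a spliceosome component that lies next to FGB, fell by 0.65 ± 0.09 in Caki-1 (adjusted p = 2e-05) and by 0.38 ± 0.15 in 769-P (adjusted p = 0.0475) at 24 h. LRAT, which esterifies retinol and lies beyond FGG, gave 0.35 ± 0.16 in Caki-1 (adjusted p = 0.0744) and 0.31 ± 0.16 in 769-P (adjusted p = 0.105). On chromosome 10 CEP55, a gene of cell division near RBP4, fell by 2.42 ± 0.16 in Caki-1 (adjusted p = 4.75e-09) and by 3.19 ± 0.07 in 769-P (adjusted p = 7.42e-14). FFAR4, the nearest gene to RBP4 at a gap of 1622 bases, lay under the filter in both lines. Beside SERPINA1, SERPINA6, which encodes the corticosteroid carrier of plasma, rose by 0.43 ± 0.16 in Caki-1 (adjusted p = 0.0269) and by 1.12 ± 0.13 in 769-P (adjusted p = 1.53e-06). Of the genes flanking STRA6, SEMA7A, a semaphorin, fell by 0.94 ± 0.13 in Caki-1 (adjusted p = 1.18e-05) and by 1.49 ± 0.20 in 769-P (adjusted p = 8.74e-06).

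The other genes of each pathway were counted from lists, in which some genes stand more than once. The lists were chosen with earlier results of these data known, so their counts are a description and no independent support. Of 15 genes of retinoid transport and metabolism tested in Caki-1, 7 rose and 3 fell at 24 h, with a median change of 0.35 against 0.08 over all genes, and of 13 tested in 769-P 8 rose and none fell, with a median of 0.39 against 0.04. In comparison 32.9% of all genes rose and 29.9% fell in Caki-1, and 31.1% rose and 24.6% fell in 769-P. The same shares stand beside the 24 h counts of every list that follows. RDH10, which oxidises retinol to retinal, rose by 2.44 ± 0.13 (adjusted p = 1e-09) in Caki-1 and 1.34 ± 0.13 (adjusted p = 3.78e-07) in 769-P. DHRS3, which reduces retinal back to retinol, rose by 1.90 ± 0.14 (adjusted p = 1.62e-08) in Caki-1 and by 1.02 ± 0.24 (adjusted p = 0.00187) in 769-P. ALDH1A3, which makes retinoic acid, gave -1.84 ± 0.09 (adjusted p = 4.2e-10) in Caki-1 and 0.91 ± 0.26 (adjusted p = 0.00681) in 769-P, so it fell in one line and rose in the other (difference -2.75 ± 0.31, adjusted p = 2.5e-07). ALDH1A1, of the same family, rose by 2.88 ± 0.16 (adjusted p = 3.35e-10) in 769-P. BCO2, which cleaves carotenoids, rose by 1.60 ± 0.19 (adjusted p = 3.08e-06) in Caki-1. Of retinoic acid receptors and response genes, 6 of 11 rose in Caki-1 and 5 of 10 in 769-P, and none fell, with medians of 0.27 in both. PLAAT4, induced by retinoids, rose by 1.62 ± 0.13 (adjusted p = 3.16e-08) in Caki-1 and by 1.67 ± 0.16 (adjusted p = 2.3e-07) in 769-P, TGM2, a transglutaminase, by 0.86 ± 0.08 (adjusted p = 2.76e-07) in Caki-1 and by 0.44 ± 0.12 (adjusted p = 0.00636) in 769-P, RXRB by 0.60 ± 0.08 (adjusted p = 8.83e-06) in Caki-1 and RARA by 0.48 ± 0.14 (adjusted p = 0.0102) in 769-P. At 6 h 2 of 15 retinoid metabolism genes rose in Caki-1, where 12.3% of all genes did, and 5 of 13 rose in 769-P, where 16.4% of all genes did.

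In the clotting system around fibrinogen, coagulation factors and their inhibitors moved both ways. In Caki-1 5 of 13 rose and 3 fell at 24 h (median 0.28), and in 769-P 5 of 12 rose and 3 fell (median 0.11). Of all genes 32.9% rose and 29.9% fell in Caki-1, and 31.1% rose and 24.6% fell in 769-P. F3, tissue factor, fell by 1.89 ± 0.23 (adjusted p = 3.79e-06) in Caki-1 and THBD, thrombomodulin, by 1.36 ± 0.20 (adjusted p = 2.6e-05), while TFPI rose by 1.54 ± 0.07 (adjusted p = 2.47e-10). PROS1, protein S, rose by 1.24 ± 0.13 (adjusted p = 7.24e-07) in Caki-1 and 1.63 ± 0.15 (adjusted p = 1.18e-07) in 769-P, and F8, factor VIII, by 1.61 ± 0.15 (adjusted p = 2.32e-07) in 769-P. PROCR, the protein C receptor, fell by 1.02 ± 0.15 (adjusted p = 1.87e-05) and TFPI2 by 0.68 ± 0.13 (adjusted p = 0.000307) in 769-P. Fibrinolysis genes, which dissolve fibrin or hold that back, mostly fell: 1 of 7 rose and 6 fell in each line, with medians of -0.41 in Caki-1 and -0.40 in 769-P. PLAT, tissue plasminogen activator, fell by 1.93 ± 0.20 (adjusted p = 7.7e-07) in Caki-1. PLAU, urokinase, fell by 0.69 ± 0.06 (adjusted p = 2.17e-07) in Caki-1 and by 2.38 ± 0.12 (adjusted p = 2.3e-10) in 769-P, and its receptor PLAUR by 0.48 ± 0.10 (adjusted p = 0.000714) in Caki-1 and by 1.97 ± 0.16 (adjusted p = 3.82e-08) in 769-P. The gene that rose was SERPINF2, the plasmin inhibitor, by 0.42 ± 0.09 (adjusted p = 0.000975) in Caki-1 and 2.85 ± 0.12 (adjusted p = 1.79e-11) in 769-P (difference -2.43 ± 0.15, adjusted p = 2.47e-11). SERPINE2, which inhibits thrombin and urokinase, fell by 1.55 ± 0.06 (adjusted p = 1.46e-11) in 769-P.

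Of the other acute-phase plasma proteins, 7 of the 10 tested in Caki-1 rose and 2 fell (median 0.39), and 1 of the 7 tested in 769-P rose (median 0.00). The difference between these counts was not tested. Shares over all genes at 24 h were 32.9% higher and 29.9% lower in Caki-1, and 31.1% higher and 24.6% lower in 769-P. C3, the central complement protein, rose by 1.44 ± 0.08 (adjusted p = 1.89e-09) in Caki-1 and 2.16 ± 0.22 (adjusted p = 4.59e-07) in 769-P. ITIH2, which links to hyaluronan, rose by 1.38 ± 0.28 (adjusted p = 0.00058) and CP, the copper carrier ceruloplasmin, by 1.04 ± 0.11 (adjusted p = 9.61e-07) in Caki-1, where SAA2, a serum amyloid, fell by 0.60 ± 0.24 (adjusted p = 0.0434). Of IL-6 family cytokine and JAK-STAT3 genes, 11 of 19 rose and 1 fell in Caki-1 (median 0.44), and 12 of 18 rose and 3 fell in 769-P (median 0.50). CEBPD, a C/EBP factor of the acute phase, rose by 1.50 ± 0.09 (adjusted p = 2.24e-09) in Caki-1 and by 2.52 ± 0.15 (adjusted p = 7.84e-10) in 769-P. IL6 rose by 1.26 ± 0.09 (adjusted p = 2.04e-08), BCL3 by 1.30 ± 0.12 (adjusted p = 1.46e-07) and SOCS1, a feedback inhibitor, by 1.23 ± 0.22 (adjusted p = 0.000185) in Caki-1. In 769-P LIFR rose by 1.64 ± 0.19 (adjusted p = 2.16e-06) and IL11RA by 1.05 ± 0.15 (adjusted p = 1.36e-05), while LIF fell by 1.51 ± 0.12 (adjusted p = 2.42e-08). Transcription factors of liver and kidney secretory genes gave 9 of 15 higher and 1 lower in each line, with medians of 0.33 in Caki-1 and 0.41 in 769-P. PPARGC1A, a coactivator of liver metabolism, rose by 3.21 ± 0.18 (adjusted p = 1.36e-09) in Caki-1 and by 1.42 ± 0.08 (adjusted p = 1.05e-09) in 769-P, NR5A2, a liver nuclear receptor, by 2.09 ± 0.15 (adjusted p = 1.35e-08) in Caki-1 and by 2.34 ± 0.26 (adjusted p = 1.05e-06) in 769-P, PPARA by 1.61 ± 0.16 (adjusted p = 3.52e-07) in Caki-1 and HLF by 2.64 ± 0.19 (adjusted p = 1.09e-08) in 769-P.

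Of other serpins, 5 of 9 rose and 1 fell in Caki-1 (median 0.27), and 4 of 9 rose and 2 fell in 769-P (median 0.14). For these small lists the shares of all genes were 32.9% higher and 29.9% lower in Caki-1, and 31.1% higher and 24.6% lower in 769-P. Those that rose included SERPINB1 at 0.80 ± 0.06 (adjusted p = 1.93e-08) and SERPINB9 at 0.73 ± 0.11 (adjusted p = 4.42e-05) in Caki-1 and SERPINI1 at 0.74 ± 0.18 (adjusted p = 0.0022) in 769-P. Other proteins with a fibrinogen domain gave 3 of 7 higher and 1 lower in Caki-1 (median 0.16) and 1 of 8 higher in 769-P (median 0.06). FIBCD1 rose by 0.63 ± 0.13 (adjusted p = 0.000512), ANGPTL4 by 0.56 ± 0.19 (adjusted p = 0.0204) and FGL1 by 0.35 ± 0.12 (adjusted p = 0.0222) in Caki-1, the gene that fell there was TNC, which encodes tenascin C, and the one that rose in 769-P was TNN, a further tenascin. Of fibrinogen receptors 1 of 6 rose in Caki-1 (median 0.06), and 1 of 7 rose and 3 fell in 769-P (median -0.15). ICAM1 rose by 0.40 ± 0.11 (adjusted p = 0.00555) in Caki-1 and by 0.76 ± 0.22 (adjusted p = 0.00709) in 769-P, and the integrin genes ITGAV, ITGA5 and ITGB1 fell in 769-P by 0.64 ± 0.08 (adjusted p = 3.35e-06), 0.60 ± 0.11 (adjusted p = 0.000213) and 0.38 ± 0.05 (adjusted p = 4.18e-06). Other lipocalins, the family of RBP4, gave 2 of 4 higher in Caki-1 (median 0.40) and 2 of 3 in 769-P (median 2.05). AMBP, the precursor of alpha-1 microglobulin and bikunin, rose by 0.41 ± 0.11 (adjusted p = 0.00361) in Caki-1 and 2.37 ± 0.13 (adjusted p = 2.59e-10) in 769-P (difference -1.96 ± 0.17, adjusted p = 4.15e-09), LCN2 by 0.47 ± 0.19 (adjusted p = 0.0393) in Caki-1, and APOM by 2.05 ± 0.30 (adjusted p = 2.51e-05) in 769-P. ELANE, PRTN3 and CTSG, the 3 proteases listed as inhibited by SERPINA1, did not pass the filter in either line, and no other protease was listed as its target.

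Genes for folding and export of secretory proteins gave 15 of 31 higher and 2 lower in Caki-1 (median 0.21), and 9 higher and 12 lower in 769-P (median -0.05). All genes together gave 32.9% higher and 29.9% lower in Caki-1, and 31.1% higher and 24.6% lower in 769-P. ERO1B, an oxidase of the endoplasmic reticulum, rose by 0.95 ± 0.10 (adjusted p = 8.51e-07) in Caki-1 and by 1.08 ± 0.15 (adjusted p = 1.24e-05) in 769-P. In Caki-1 SYVN1 rose by 0.88 ± 0.08 (adjusted p = 2.44e-07), PDIA3 by 0.82 ± 0.17 (adjusted p = 0.000758) and SAR1A by 0.65 ± 0.10 (adjusted p = 2.67e-05). In 769-P MAN1B1 rose by 0.82 ± 0.08 (adjusted p = 2.23e-07), while ERO1A fell by 0.93 ± 0.18 (adjusted p = 0.000296) and LMAN1, a cargo receptor for clotting factors, by 0.84 ± 0.21 (adjusted p = 0.00267). For LMAN1 the difference between the lines was 1.37 ± 0.28, adjusted p = 0.000446.

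**Figure D4:**
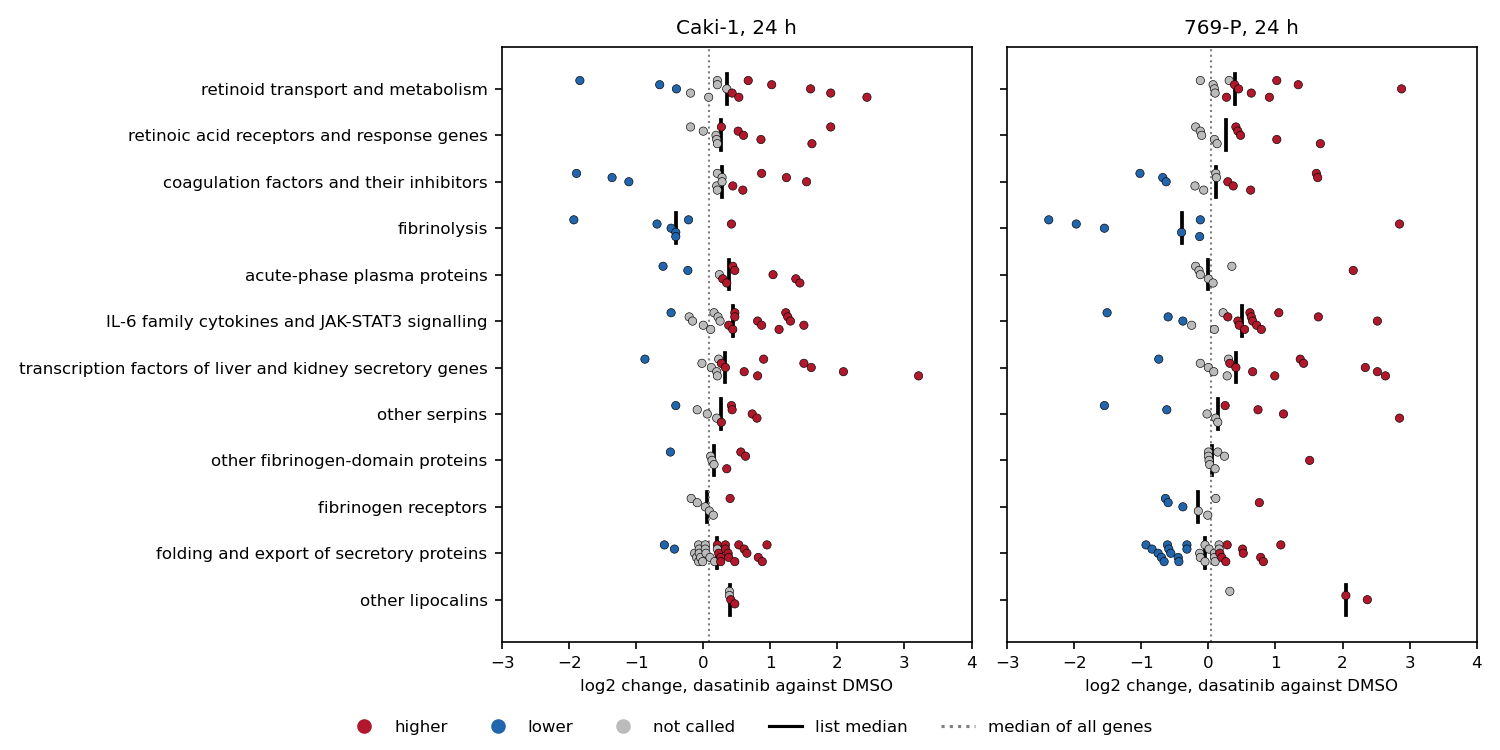
Log2 change at 24 h against DMSO (horizontal axis) of every tested gene of 12 gene lists (rows) in Caki-1 (left) and 769-P (right). Points are genes, red higher, blue lower and grey not called, black bars are list medians and the dotted line is the median of all genes (0.08 and 0.04). Fibrinolysis genes lie mostly to the left (medians -0.41 and -0.40).

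Markers of renal epithelium and of other cell types were read on the same arrays, all of which hold RNA of established renal carcinoma lines. Of 8 renal epithelial markers 7 were above the filter in both lines, PAX8 among them, with array means of the list of 7.58 to 7.77 at 24 h and 7.63 to 7.70 under DMSO in Caki-1, and of 8.23 to 8.28 at 24 h and 7.86 to 7.96 under DMSO in 769-P. At 24 h 2 of the 7 rose and 2 fell in Caki-1, with PAX8 at 0.72 ± 0.07 (adjusted p = 3.25e-07), KRT18 at -0.82 ± 0.06 (adjusted p = 1.2e-08) and KRT8 at a mean of 9.01 at 24 h and 10.02 under DMSO (adjusted p = 2.77e-07), and 5 rose and 1 fell in 769-P. Hepatocyte markers, of the cell type that secretes fibrinogen, RBP4 and alpha-1 antitrypsin in the body, were 5 of 15 above the filter in each line. Their array means were 5.10 to 5.27 at 24 h and 4.90 to 4.97 under DMSO in Caki-1, and 5.23 to 5.25 at 24 h and 5.08 to 5.16 under DMSO in 769-P. APOA1, AHSG, TTR, TF and CPS1 were above the filter in both lines, and the others, ALB and APOB among them, were under it in both. At 24 h 2 of the 5 rose in Caki-1 and 1 of the 5 in 769-P, where 32.9% and 31.1% of all genes rose, and none fell. Of 6 fibroblast markers 4 passed the filter in Caki-1, and 3 of these rose at 24 h, where 32.9% of all genes rose. Array means were 6.19 to 6.30 at 24 h and 5.31 to 5.34 under DMSO. LUM rose by 2.27 ± 0.18 (adjusted p = 4.75e-08), DCN by 1.93 ± 0.20 (adjusted p = 6.1e-07) and COL1A1 by 1.05 ± 0.15 (adjusted p = 1.53e-05). PDGFRB, which also passed, was not called, with means of 6.26 at 24 h and 6.34 under DMSO, and COL1A2 and COL3A1 stayed under the filter. The DMSO means of LUM (5.11) and DCN (4.98) lay under the filter level, so these genes passed through the dasatinib groups and the sizes are relative to such low signals. In 769-P the fibroblast list gave 4.59 to 4.70 at 24 h and 4.56 to 4.74 under DMSO. Endothelial markers in Caki-1 gave 5.22 to 5.56 at 24 h and 4.95 to 5.00 under DMSO, with PECAM1 at 0.89 ± 0.13 (adjusted p = 3.34e-05) and 2 of 5 above the filter, and in 769-P 5.07 to 5.13 at 24 h and 5.00 to 5.11 under DMSO. Leukocyte markers gave 4.94 to 5.05 at 24 h and 5.10 to 5.14 under DMSO in Caki-1, and 4.71 to 4.94 at 24 h and 4.72 to 4.77 under DMSO in 769-P. Of 4 that passed the filter in Caki-1, CD14 fell, with means of 5.21 at 24 h and 6.19 under DMSO, and none rose. Clear cell carcinoma markers gave 9.30 to 9.62 at 24 h and 9.26 to 9.32 under DMSO in Caki-1, and 8.78 to 8.89 at 24 h and 8.77 to 8.79 under DMSO in 769-P. The part of these markers in the changes of the 6 genes was not tested.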

How the data were processed

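The values used were the log2 signals the authors deposited, 1 per probe set and array, for 24 arrays. The submitters' processing notes name MAS5, with no version, and the way it was applied to an array with no mismatch probes is not given in the sources used here. Of 49395 probe sets, 102 were controls, 44988 named 1 gene, 1832 several and 2473 none in the platform annotation, joined to RefSeq (GRCh38.p14) by Entrez identifier. Each gene was read from its brightest single-gene probe set. Tests used limma (version 3.58.1, R 4.3.3) with group means and a trended prior variance: 12 arrays within a line (8 residual degrees of freedom), 24 for line differences (16). P-values were adjusted by Benjamini-Hochberg over all genes above the 40th percentile. The code was tested on simulated data.

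Groups came from sample titles. Members and gene lists were chosen with earlier results of these data known. Genes named are all members, the 3 most similar by Pearson's r, neighbours among the 3 nearest on each side, and up to 4 called genes of each list with the largest change at 24 h in either line. The alternatives tried were other scalings, filters, probe sets, variance models, array sets, the replicate number as a block, and leaving out each array. Equally numbered arrays deviated together, every pair over 0.1, in 769-P only: correlations ran from 0.11 to 0.36 at 6 h, from 0.12 to 0.17 at 24 h, and from 0.1 to 0.19 in the comparison of 24 h and 6 h. Promoters were searched with Python 3.11.15 and pandas 2.3.3, and figures drawn with matplotlib 3.10.9.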

Additional observations from a re-analysis of the deposited data

Results flagged for a closer look

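The change in Caki-1 minus the change in 769-P passed its own test at 1 time or more for 4 of the 5 genes tested, which marked them for a closer look. Over all 12862 genes 3.68%, 8.67% and 13.8% were higher at 6, 12 and 24 h, and 4.42%, 10.3% and 22.2% lower. FGA and RBP4 passed the filter only through Caki-1, and SERPINA1 only through 769-P, where they are high, so their values are a description. FGA differed by 2.60, 3.49 and 3.77 at 6, 12 and 24 h. FGB differed by 1.66, 2.59 and 2.98 at these times. RBP4 differed by 0.91, 2.99 and 3.90, and its 6 h value lost its call without any 1 of 10 of the 12 arrays. SERPINA1 differed by -0.70 at 24 h.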

How the results depend on the processing

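Counts of genes called stayed within 1.5 times in 193 of 193 alternatives, and of 1266 recomputed member values 1196 kept their direction and their side of the threshold or, where untested, moved by under 1 SD. Leaving aside fits on other single probe sets, in Caki-1 FGA ranged from 2.67 to 3.87 at 24 h, FGB from 3.10 to 3.91 and RBP4 from 4.08 to 4.40, all called. FGA at its low end is the mean of all its probe sets, which gave 1.53, 2.35 and 2.67 at 6, 12 and 24 h. In 769-P at 24 h FGB ranged from 0.58 to 0.93. The RBP4 line difference at 6 h lost its call after centring (adjusted p = 0.0512), with no filter (0.0538), by mean of probe sets (0.0548) and with no trend (0.0685).

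Among tested values, those that changed sign were of STRA6 and SERPINA1, and the cause was not tested. Called after the change were 3, all of STRA6: -0.37 in Caki-1 at 12 h (adjusted p = 0.0454), and 0.20 and 0.75 under DMSO. SERPINA1 at 24 h had been called before it, in the line difference and against 6 h in 769-P. The mean of all STRA6 probe sets gave -0.06 in Caki-1 at 12 h, a line difference of -0.05 at 12 h, and 0.20 between lines under DMSO (adjusted p = 0.0366). Probe set 11733687_s_at of STRA6 gave -0.37 at 12 h and -0.18 at 24 h in Caki-1, line differences of -0.20 at 12 h and -0.09 at 24 h, and 0.75 under DMSO. For SERPINA1, the line difference at 6 h was -0.19 by the mean of probe sets and -0.26, -0.47 and -0.12 by its other probe sets. Probe set 11721457_a_at gave 0.05 for the line difference at 24 h and -0.15 in 769-P for 24 h against 6 h. Leaving out 1 array gave STRA6 from -0.15 to 0.06 in Caki-1 at 6 h, and in 769-P from -0.04 to 0.07 at 6 h, -0.06 to 0.03 at 12 h and -0.10 to 0.00 at 24 h. It gave line differences at 6 h from -0.17 to 0.04 for STRA6 and from -0.07 to 0.21 for SERPINA1, and from -0.12 to 0.02 for STRA6 under DMSO.

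Outside 769-P at 6 h and 24 h, not every pair of equally numbered arrays deviated together. With the replicate number as a block, FGB in 769-P at 12 h (0.30, adjusted p = 0.0193) and the SERPINA1 line difference at 12 h (-0.59, adjusted p = 0.028) were called, and no other member call changed. The block was not run for the lines under DMSO, where it lies within a line. All 3 genes most like a member stayed in 18 of 27 settings for FGA, 24 for FGB, 14 for RBP4, 11 for FGG, 10 for SERPINA1 and 11 for STRA6. FGG in both lines, FGA and RBP4 in 769-P and SERPINA1 in Caki-1 were left out by the filter, and some of their values crossed 0: leaving out 1 array gave -0.05 to 0.28 for RBP4 at 12 h, -0.08 to 0.15 for FGA at 24 h and -0.04 to 0.27 for FGG at 6 h in 769-P, and other probe sets gave -0.11 for FGA at 12 h in 769-P and 0.06 for the FGG line difference at 6 h. With no filter FGG in Caki-1 was called at 24 h (0.66, adjusted p = 0.000336) and at 24 h against 6 h, and none of these other genes was called against DMSO.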
